A study of Mus musculus with 12 samples.

Results

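The genes described here are the mitochondrial ribosomal protein genes of the mouse, followed through RNA and ribosome footprints of testes with and without Mael. They were chosen by name alone, as the gene entries of the count table whose symbol starts with Mrpl or Mrps and a number. The rule found 77 of 20620 genes, 48 named for the large subunit and 29 for the small subunit, and all 77 had counts in every one of the 12 libraries. They lie on 17 chromosomes. Of the 77, 44 carry a number that a bacterial ribosomal protein also has and 33 carry a number given to mitochondria only.

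The study asked how loss of Mael, a germ cell factor needed to hold L1 retrotransposons silent, affects the RNAs that ribosomes translate in spermatocytes. Whole testes of Mael+/- and Mael-/- C57BL/6 mice were collected at P16, postnatal day 16, when the first wave of germ cells is in meiosis, and were kept in cycloheximide, which holds ribosomes in place. From each of 3 extracts per genotype, one portion gave an RNA library and another a footprint library of the fragments that ribosomes shield from nuclease, so that each genotype has 3 RNA and 3 footprint libraries. The controls are heterozygous, not wild type, and the extracts hold germ cells and somatic cells together.

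Mitochondria keep their own ribosomes, which translate the few proteins still encoded by mitochondrial DNA, all of them parts of the respiratory chain and of ATP synthase. The RNAs of these ribosomes are mitochondrial transcripts, but every one of their proteins is encoded in the nucleus, translated on cytosolic ribosomes and imported. Some of the proteins descend from the bacterial ribosome, and others are found in mitochondria only. Spermatocytes come to rely on oxidative metabolism as meiosis proceeds, and footprints on these mRNAs report cytosolic translation, not the activity of the mitochondrial ribosome itself.

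The RNA libraries held between 13697267 and 27462358 gene counts and the footprint libraries between 7609932 and 13233565, and the members took 0.363 to 0.411% of the RNA counts and 0.365 to 0.392% of the footprint counts. Mael RNA had 3800 to 5045 counts in the Mael+/- libraries and 1, 2 and 0 in the Mael-/- libraries, at least 791-fold lower by a floor of 3 counts per library. All 12 Sertoli cell and all 8 spermatogonial markers looked up had over 1 CPM (counts-per-million of gene counts) in each group. Extract 1 of Mael+/- stood apart in markers of pachytene spermatocytes and of early meiotic prophase. Of 15 pachytene markers 14 were in the table, 1 of them was at 0 throughout both genotypes in RNA, and 11 in Mael+/- and 8 in Mael-/- were over 1 CPM in RNA. The 11 that passed the filter summed to 925 CPM in RNA library 1 of Mael+/-, against 331 and 360 in the other Mael+/- libraries and 268 to 317 in Mael-/-. Their RNA log2 fold changes were above 0 for 0 of 11 (median -1.53), with 0 called by edgeR and 7 at an unadjusted p under 0.05. In footprints 0 of 8 were above 0 (median -1.15), with 0 called by edgeR and 5 at an unadjusted p under 0.05. In footprints the 8 that passed summed to 1081 CPM in library 1 of Mael+/-, against 316 and 382 in the others and 275 to 317 in Mael-/-. By this sum library 2 of Mael+/- lay within the Mael-/- range. By the markers' median log2 level against their assay mean it did not, at -0.23 against -0.52 to -0.48 in Mael-/-. In RNA libraries 2 and 3 of Mael+/- were at -0.22 and 0.01 by that median, against -0.56 to -0.42 in Mael-/-. The 10 early prophase markers summed to 2553 CPM in RNA library 1 of Mael+/-, against 1045 and 1201, with 1021 to 1470 in Mael-/-, and to 3288 CPM in footprint library 1, against 1310 and 1411, with 1416 to 1519 in Mael-/-. Of 8 macrophage markers 7 were in the table, all with RNA log2 fold changes above 0 (median 0.38) with 0 called by edgeR and 1 at an unadjusted p under 0.05, and with sums of 124 to 199 CPM in Mael+/- and 176 to 199 CPM in Mael-/-. The 9 Leydig cell markers in the table had RNA sums of 382 to 618 CPM in Mael+/- and 356 to 631 CPM in Mael-/-. The part of any of these cell types in the members' values was not tested.

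The first comparison was of RNA between the genotypes, and no member passed its test. CPM values were scaled within each assay by edgeR's TMM factors, which offset differences in library make-up, and the test was edgeR's quasi-likelihood test with Benjamini-Hochberg adjustment over all genes at a threshold of 0.05. Of the 77 members 0 were called, where the same test called 0.116% of the 14685 genes, and the smallest adjusted p among the members in edgeR was 0.900. At an unadjusted p under 0.05 there were 3 members, Mrpl12, Mrpl37 and Mrpl30, where 5.4% of all genes were, and DESeq2 also called 0. The median log2 fold change of Mael-/- over Mael+/- was -0.00, as it was over all genes, with 37 members above 0. For 73 of 77 members, or 94.8%, the 95% confidence interval of the log2 fold change lay within 0.5 on either side of 0, against 65.0% of all genes. In whole testis, fewer cells of a type and less RNA per cell cannot be told apart.

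The summed level of the members was close in all libraries of an assay. Summed over the members, RNA came to 3904, 3963 and 3885 CPM in the 3 Mael+/- libraries and to 3622, 3951 and 4117 CPM in the 3 Mael-/- libraries. Mael-/- library 1, the shallowest RNA library, held the lowest sum and Mael-/- library 3 the highest, so the Mael+/- values lay inside the range of the Mael-/- ones. Footprints summed to 3939, 3701 and 3899 CPM in Mael+/- and to 3652, 3706 and 3783 CPM in Mael-/-. The lowest of the 6 was Mael-/- library 1, and the other Mael-/- sums lay within the Mael+/- range.

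**Figure D1:**
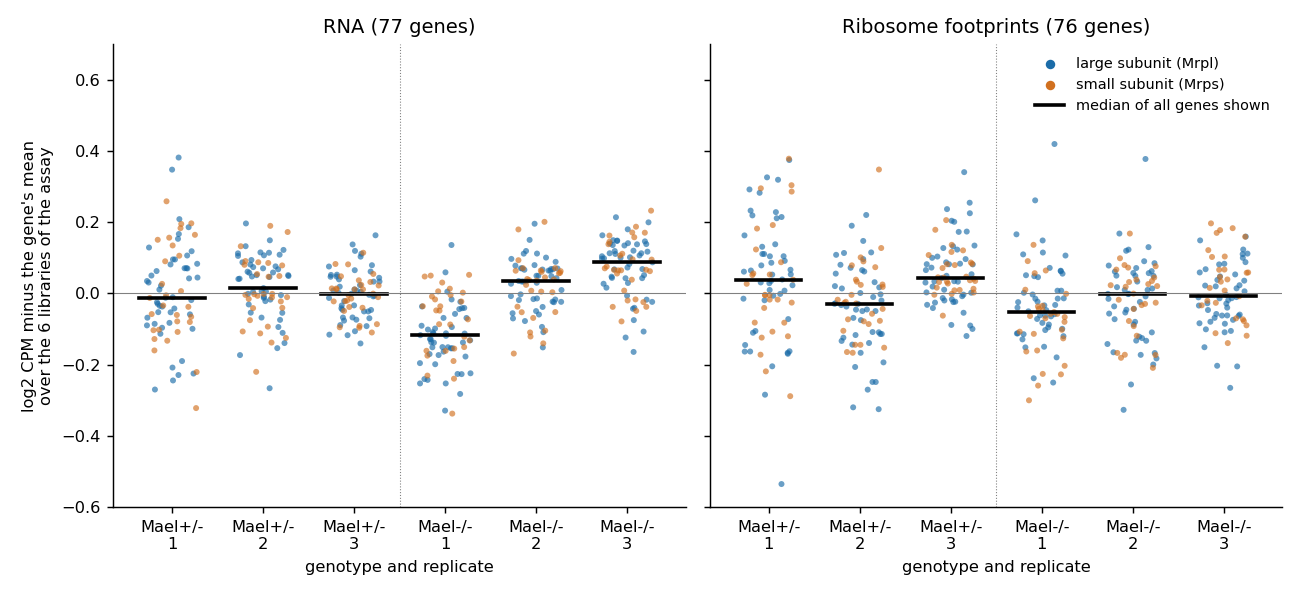
Each point is 1 member in 1 library, as its log2 CPM minus that gene's mean over the 6 libraries of the assay, for 77 members in RNA and 76 in footprints, with the median of the members as a bar. The members moved together within a library by little: the RNA medians of Mael-/- ran from -0.12 in library 1 to 0.09 in library 3, and those of Mael+/- from -0.01 to 0.01.

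Mrpl39 had the lowest RNA log2 fold change of the members, and its value rested in part on 1 library. Mrpl39, a large subunit protein found in mitochondria only, was at 81.6, 67.4 and 62.7 CPM in the Mael+/- RNA libraries and at 51.1, 62.0 and 63.9 CPM in the Mael-/- ones. The groups overlapped, with the highest value in Mael+/- library 1 and the lowest in Mael-/- library 1. The log2 fold change was -0.26 ± 0.13 (SE, n = 3 per genotype) and came to -0.14 without Mael+/- library 1, the library with the high pachytene markers, and its adjusted p in edgeR was 0.938.

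Mrpl12 encodes the counterpart of bacterial L7/L12, the flexible stalk that recruits translation factors to the ribosome. Its RNA was at 53.6, 50.8 and 49.1 CPM in Mael+/- and at 40.2, 46.3 and 43.7 CPM in Mael-/-. All Mael-/- libraries lay below all Mael+/- libraries, and the log2 fold change was -0.23 ± 0.09 (SE), with an unadjusted p of 0.0330 and an adjusted p of 0.900 in edgeR. Mrpl37, another large subunit protein of mitochondria only, was at 68.5, 67.6 and 61.2 CPM in Mael+/- and at 57.1, 54.9 and 57.9 CPM in Mael-/-. These groups did not overlap either, with a log2 fold change of -0.21 ± 0.09 (SE) and an adjusted p of 0.902 in edgeR.

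At the other end stood Mrps26, a small subunit protein, at 33.8, 41.9 and 41.9 CPM in Mael+/- and 43.7, 43.9 and 49.6 CPM in Mael-/-. The genotypes did not overlap, and the log2 fold change was 0.22 ± 0.11 (SE), with an adjusted p of 0.944 in edgeR. Mrpl23, counterpart of a protein at the mouth of the peptide exit tunnel, had the low RNA level of 6.5, 7.86 and 6.91 CPM in Mael+/- and 8.37, 7.98 and 8.28 CPM in Mael-/-. Its Mael-/- libraries lay just above the highest Mael+/- library, and its log2 fold change was 0.21 ± 0.15 (SE). Mrps35, also of the small subunit, was at 41.4 to 43.9 CPM in Mael+/- and 44.7 to 50.2 CPM in Mael-/-, a log2 fold change of 0.14 ± 0.09 (SE).

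Counted by libraries alone, 8 of 77 members (10.4%) had all Mael-/- RNA values below all Mael+/- values, against 5.03% of all genes, and 6 (7.79%) had them all above, against 5.23%. The 8 were Mrpl12, Mrpl24, Mrpl30, Mrpl33, Mrpl37, Mrpl53, Mrps10 and Mrps18c, and the 6 were Mrpl19, Mrpl23, Mrpl57, Mrps25, Mrps26 and Mrps35. On the opposite strand, Mrpl24 shares 850 bases with Rrnad1, Mrpl37 shares 37 with Cyb5rl, Mrpl19 shares 1273 with Gcfc2, Mrpl57 shares 64 with Ska3 and Mrps25 shares 3547 with Nr2c2. Whether reads were counted by strand is not given in the sources used here.

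Footprints were compared between the genotypes in the same way, for 76 members. Mrps36 did not pass the filter on low counts, with 1, 5 and 3 footprints in the Mael+/- libraries and 6, 5 and 2 in the Mael-/- libraries. Of the 76, 0 were called by edgeR, where 0.0593% of the 13500 genes tested were, and DESeq2 called 0 as well. At an unadjusted p under 0.05 stood 3 members, Mrpl53, Mrpl30 and Mrpl20, where 4.33% of all genes did, and the smallest adjusted p in edgeR was 0.999. The median log2 fold change was -0.02, against -0.01 for all genes, and 28 members (36.8%) were above 0 where 47.6% of all genes were. The interval lay within 0.5 on either side of 0 for 68 members (89.5%), against 64% of all genes.

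Mrpl53, a large subunit protein of mitochondria only, had the lowest value. Its footprints were at 26.5, 28.1 and 26.2 CPM in Mael+/- and at 22.6, 22.2 and 20.1 CPM in Mael-/-, and its RNA was at 40.0, 34.2 and 37.4 CPM against 31.1, 32.1 and 33.6 CPM. The genotypes did not overlap in either assay. The log2 fold change was -0.32 ± 0.12 (SE) in footprints, with an unadjusted p of 0.0200 and an adjusted p of 0.999 in edgeR, and -0.20 ± 0.10 (SE) in RNA. Mrpl53 shares 14 bases with Ccdc142 on the same strand.

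Mrpl30, which has a bacterial counterpart in the large subunit, showed a like pattern. Its footprints were at 27.3, 23.5 and 23.4 CPM in Mael+/- and at 20.4, 19.9 and 20.1 CPM in Mael-/-, and its RNA at 87.5, 85.2 and 80.0 CPM against 70.7, 73.7 and 76.4 CPM. No Mael-/- library reached the lowest Mael+/- library in either assay. The log2 fold change was -0.30 ± 0.12 (SE) in footprints and -0.19 ± 0.08 (SE) in RNA, and neither passed the adjusted threshold, with edgeR's adjusted p at 0.999 and 0.922.

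Mrps18c and Mrps10, both of the small subunit, completed the members without overlap in both assays. Mrps18c footprints were at 47.5, 34.7 and 38.8 CPM in Mael+/- and 34.1, 31.6 and 34.6 CPM in Mael-/-, with 34.7 and 34.6 CPM as the nearest values of the genotypes. Mrps10 footprints were at 22.9, 18.9 and 18.7 CPM in Mael+/- and 17.6, 16.5 and 17.4 CPM in Mael-/-. Both had their highest footprint and RNA values in Mael+/- extract 1. The 4 members that were lower in both assays compare with 1.33% of the genes tested in both, and no member was higher in both, which 1.08% of genes were.

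In footprints alone, 11 of 76 members (14.5%) had all Mael-/- libraries below all Mael+/- libraries, against 4.84% of all genes, and 0 had them all above, against 4.24%. The other 7 were Mrpl2, Mrpl20, Mrpl21, Mrpl22, Mrpl42, Mrpl52 and Mrpl54. Mrpl20, whose bacterial counterpart is an early assembly protein of the large subunit, was at 101, 79.0 and 85.3 CPM in Mael+/- and 77.3, 67.5 and 77.2 CPM in Mael-/-. Its log2 fold change was -0.26 ± 0.11 (SE), with an unadjusted p of 0.0448 and an adjusted p of 0.999 in edgeR. Among the positive values, Mrps6 had 76.5, 74.2 and 85.9 CPM in Mael+/- and 86.7, 84.4 and 93.7 CPM in Mael-/-, a log2 fold change of 0.16 ± 0.10 (SE). Mrps6 shares 29138 bases with Slc5a3 on the same strand. Mrpl36, a small large-subunit protein with a bacterial counterpart, had 38.4, 34.4 and 51.4 CPM against 45.0, 45.0 and 46.5 CPM, with a log2 fold change of 0.13 ± 0.14 (SE).

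Mrpl23 had the highest footprint fold change and the fewest reads behind it. Its footprint counts were 7, 7 and 11 in Mael+/- and 19, 14 and 9 in Mael-/-, or 0.742, 0.905 and 1.07 CPM against 1.44, 1.40 and 1.07 CPM. At this depth the log2 fold change of 0.53 ± 0.36 (SE) was not distinguishable from 0, with an unadjusted p of 0.161 and an adjusted p of 0.999 in edgeR.

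**Figure D2:**
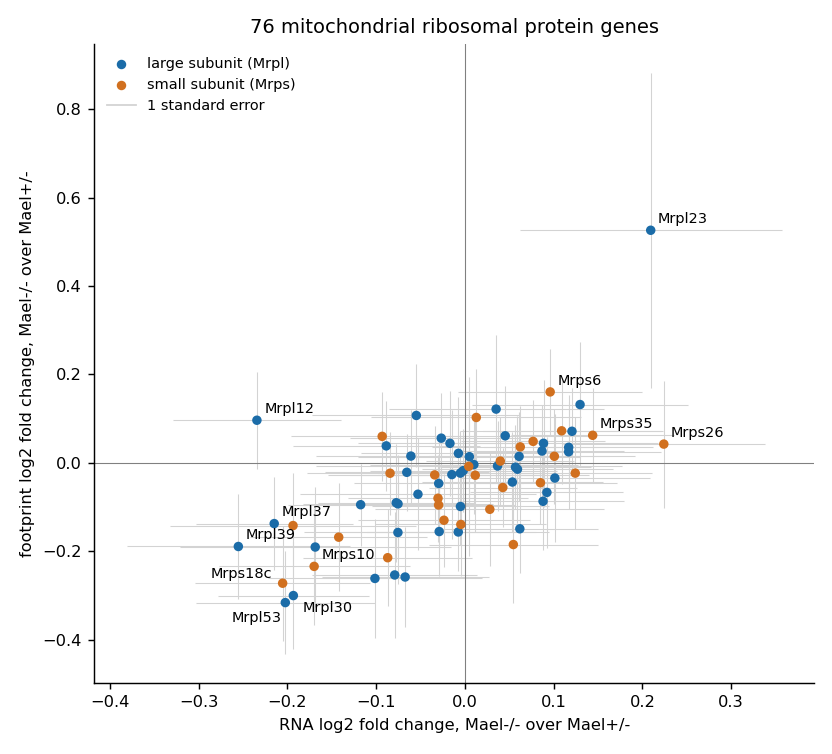
The log2 fold change of Mael-/- over Mael+/- in RNA (horizontal) and in footprints (vertical) for 76 members, with bars of 1 standard error and the subunit in the symbol by colour. All members but Mrpl23, at 0.53 in footprints, lie between -0.32 and 0.16 on the vertical axis, and the RNA values run from -0.26 to 0.22.

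The third comparison asked whether translation efficiency, footprints relative to RNA of the same gene, differed between the genotypes, as an interaction in 1 model of all 12 libraries. No member was called among 76, and 0% of the 13448 genes tested were. At an unadjusted p under 0.05 there was 1 member, Mrpl12, and 54 genes of the whole table (0.402%), and DESeq2 called 0 members. The median change of the members was -0.04 on the log2 scale, against -0.00 for all genes, with 22 members (28.9%) above 0 where 48.6% of all genes were. Without the shallowest RNA library, Mael-/- library 1, the median was -0.09 and 15 members were above 0. The interval lay within 0.5 of 0 for 65 members (85.5%), against 53.0% of all genes.

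Mrpl12 had the largest change in translation efficiency. While its RNA was lower in the Mael-/- libraries, its footprints were at 27.4, 29.1 and 27.0 CPM in Mael+/- and 28.9, 29 and 31.3 CPM in Mael-/-, and the genotypes overlapped in footprints. The change was 0.33 ± 0.13 (SE) on the log2 scale, with a 95% interval of 0.06 to 0.60, an unadjusted p of 0.0201 and an adjusted p of 1 in edgeR. Without Mael+/- extract 1 it was 0.28.

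The lowest change was that of Mrps24, the counterpart of a bacterial small subunit protein at the mRNA entry. Its footprints were at 51.4, 71.1 and 57.4 CPM in Mael+/- and 47.8, 57.3 and 53.2 CPM in Mael-/-, with RNA at 52.3 to 61.0 CPM and 56.0 to 62.0 CPM. The footprint libraries overlapped, and the change was -0.24 ± 0.16 (SE). Mrpl13 followed at -0.21 ± 0.12 (SE) and Mrpl20 at -0.19 ± 0.15 (SE), while Mrpl48 stood at 0.16 ± 0.16 (SE). All of these had an adjusted p of 1 in edgeR.

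Split by the subunit and by the kind of number in the symbol, the members had small medians. The subunit in the symbol does not always give the place of the protein, as for Mrps18a, described below. In RNA the median log2 fold change was -0.01 for the 48 large subunit genes and 0.01 for the 29 small subunit genes, and it was 0.00 for the 44 genes with bacterial numbers and -0.01 for the other 33. In footprints these medians were -0.02, -0.03, -0.01 and -0.03, and in translation efficiency they were -0.02, -0.06, -0.04 and -0.05. In translation efficiency 6 of 28 small subunit genes and 16 of 48 large subunit genes were above 0. The kind of number does not always follow descent, since Mrps24, Mrpl47 and Mrps28 carry mitochondrial numbers and have bacterial counterparts.

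Members differed from one another in how much footprint signal each had for its RNA. The fourth comparison set footprint CPM against RNA CPM of the same gene, averaged over both genotypes. A log2 difference of 0 then means that a gene took the same share of both assays. Footprints were counted over coding sequence only and RNA over whole mRNAs, so a gene with long untranslated regions is placed lower on this scale than its ribosome density alone would place it. Of the 76 members 56 were called, where 69.6% of all genes were. Footprints were higher for 25 and lower for 31, against 29.7% and 39.9% of all genes, and 20 passed in neither direction. With TMM factors over all 12 libraries together the split was 36 higher and 28 lower, where 34.3% of all genes were higher and 35.5% lower, and the median of all genes moved from -0.08 to 0.00. The members' median was -0.00 and that of all genes -0.08. By the subunit in the symbol, 14 were higher and 21 lower of 48 for the large subunit, and 11 were higher and 10 lower of 28 for the small subunit.

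Mrpl14 had the highest footprint share for its RNA. This counterpart of a bacterial large subunit protein at the subunit interface had RNA at 16.8, 17.5 and 19.2 CPM in Mael+/- and 15.6, 20.0 and 16 CPM in Mael-/-. Its footprints were at 31.8, 39.2 and 42.1 CPM in Mael+/- and 34.1, 38.5 and 35.1 CPM in Mael-/-. Every footprint library lay above every RNA library, and the log2 difference was 1.07 ± 0.09 (SE), or 2.10-fold, with an adjusted p of 9.71e-08 in edgeR.

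Mrps14 followed at 0.95 ± 0.06 (SE), with RNA at 44.4 to 47.1 CPM and footprints at 83.5 to 99.7 CPM in Mael+/-. Mrpl16, a core protein near the peptidyl transferase centre, stood at 0.92 ± 0.08 (SE), with 30.5 ± 1.26 CPM of RNA and 57.9 ± 6.83 CPM of footprints (SD, n = 3) in Mael+/-. Mrpl47 was at 0.85 ± 0.07 (SE) and Mrps28 at 0.84 ± 0.09 (SE), so the members from Mrps14 to Mrps28 differed from their neighbours in this order by less than 1 standard error.

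Mrpl23 lay at the opposite end, with RNA of 7.09 ± 0.70 CPM and footprints of 0.907 ± 0.165 CPM (SD, n = 3) in Mael+/-. Its log2 difference was -2.79 ± 0.15 (SE), or 6.93-fold lower in footprints, with an adjusted p of 4.13e-10 in edgeR. Mrpl51, a large subunit protein of mitochondria only, had 64.3 ± 1.99 CPM of RNA and 16 ± 2.38 CPM of footprints (SD, n = 3) in Mael+/-, a difference of -2.0 ± 0.09 (SE). Mrpl30 was at -1.82 ± 0.06 (SE), Mrpl42 at -1.69 ± 0.08 (SE) and Mrpl41 at -1.08 ± 0.09 (SE), so the 5 lowest were all of the large subunit. These values are not per length: with CPM per kb of coding sequence set against CPM per kb of mRNA, where the members' median was 0.80, Mrpl23 was at -2.19, Mrpl30 at -1.14, Mrpl42 at -1.01, Mrpl51 at -0.04 and Mrpl41 at 1.49. Mrpl51 has 387 coding bases in an mRNA of 1515, and Mrpl41 has 408 in 2423. Mrps36 was left out by the filter, but its 1 to 6 footprints per library stood beside 99 to 217 RNA counts.

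The ranking was similar in both genotypes. The called direction was the same in each genotype taken alone for 21 members higher and 27 lower, and for 0 was it opposite. Taken alone, Mael+/- called 24 members higher and 27 lower, where 58% of all genes were called (24.2% higher, 33.8% lower), and Mael-/- called 21 higher and 29 lower, where 58.6% were (24.2% higher, 34.4% lower). Passing in Mael+/- only were 3 members and in Mael-/- only 2, and for none of these was the change between genotypes called. Across the 76 members the differences in Mael+/- and in Mael-/- had a Pearson r of 0.988 and a Spearman rho of 0.981, as a description of points that share gene lengths, genome copies and library protocol.

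**Figure D3:**
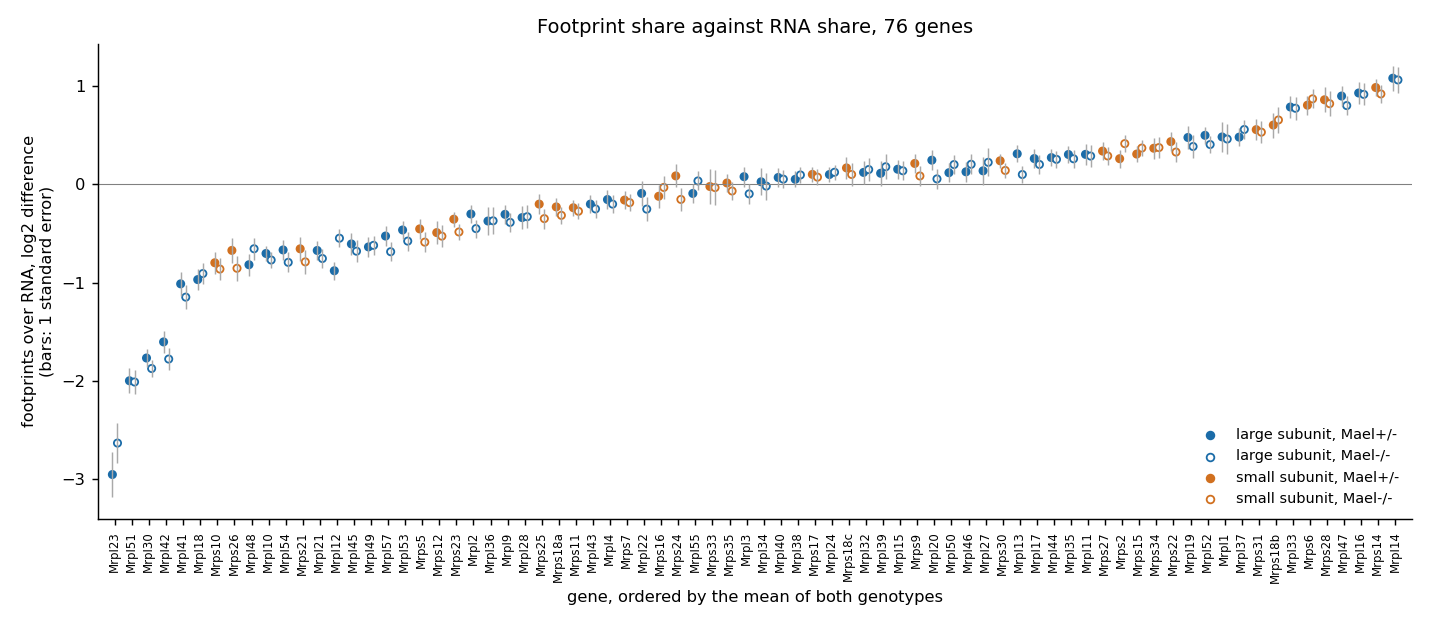
For each of 76 members the log2 difference of footprint CPM minus RNA CPM, in Mael+/- (filled) and Mael-/- (open), with bars of 1 standard error and genes ordered by the mean. The paired symbols lie close together at every gene, from Mrpl23 at -2.95 and -2.63 on the left to Mrpl14 at 1.08 and 1.06 on the right.

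The 5 members with the lowest footprint share, before any account of length, had copies of their coding sequence elsewhere in the genome. Footprints are short, and a window of 30 bases was used here to ask what part of each coding sequence is also found, base for base, at another place in the GRCm38 genome. How reads that map to several places were counted is not given in the sources used here. All coding windows of Mrpl23 and Mrps36 recurred elsewhere, as did 64.5% of those of Mrpl51, 57.5% of Mrpl42, 59.9% of Mrpl41 and 43.4% of Mrpl30. For each member only the copy that holds the most of its windows was looked up, and most of these lie in annotated pseudogenes. The first 30 coding bases below are shown because each is found unchanged in such a copy, with the start codon in capitals.
Mrpl23: ATGgcgcggaatgtgttgtaccccctttac
Mrps36: ATGggcagcaagatggcttccgccaccagg
Mrpl51: ATGgcagggagtgtcccttgggcggcaagt
Mrps33: ATGtctccgctttcggagtatgcactgcgc
The Mrpl23 window crosses an exon junction of its gene on chromosome 7 and lies unbroken at chr2:74591863-74591892, minus strand, in the pseudogene Mrpl23-ps1. The window of Mrps36, in its gene at chr13:100744539-100744568 on the minus strand, recurs at chr17:53866991-53867020, minus strand, in Mrps36-ps1. That of Mrpl51, from chr6:125192355-125192384 on the plus strand, recurs at chr2:121481129-121481158, plus strand, in Gm14018 and Gm14017. That of Mrps33, from chr6:39805556-39805585 on the minus strand, recurs at chr7:54412449-54412478, minus strand, in Gm5776.

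Of the 77 members 43 had no coding window elsewhere, 44 (57.1%) had under 1% of their windows elsewhere and 21 (27.3%) had at least 25%. Over all genes 71.9% had under 1% and 15.4% at least 25%. Among the 20 tested members with at least 25%, footprints were called higher than RNA for 1 and lower for 13, with a median log2 difference of -0.72. Over all 1083 such genes 97 were called higher and 827 lower, with a median of -0.92. Among the 44 members with under 1%, 21 were called higher and 14 lower, with a median of 0.15, where all genes of that kind had a median of -0.03 with 31.6% called higher and 36% lower. The 12 members between had 3 higher and 4 lower, with a median of 0.12.

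The relation had exceptions in both directions. Mrps33, a small subunit protein of mitochondria only, had 89.7% of its windows elsewhere and a difference of -0.03 ± 0.13 (SE). Mrpl27, with 68.9% elsewhere, was at 0.18, and Mrps18b, with 48.8%, was called higher at 0.63 ± 0.09 (SE). These percentages are of coding windows, while RNA was counted over whole mRNAs. Of whole-mRNA windows, 54.4% of Mrps33, 65.2% of Mrpl27 and 58.7% of Mrps18b recurred elsewhere. Among the members with the lowest differences this share was 79.7% for Mrpl23 and 38.0% for Mrpl51. It was 34.6% for Mrpl30, 38.9% for Mrpl42 and 12.7% for Mrpl41. With no window elsewhere, Mrpl54 was at -0.73 ± 0.07 (SE) and Mrpl53 at -0.52 ± 0.07 (SE). Across the 76 members the difference and the percentage elsewhere had a Pearson r of -0.580 and a Spearman rho of -0.440, against -0.403 and -0.145 over 13386 genes, with libraries and annotation shared by all points. The part of multiply mapping reads in these differences, be it through footprints or through RNA, was not tested.

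**Figure D4:**
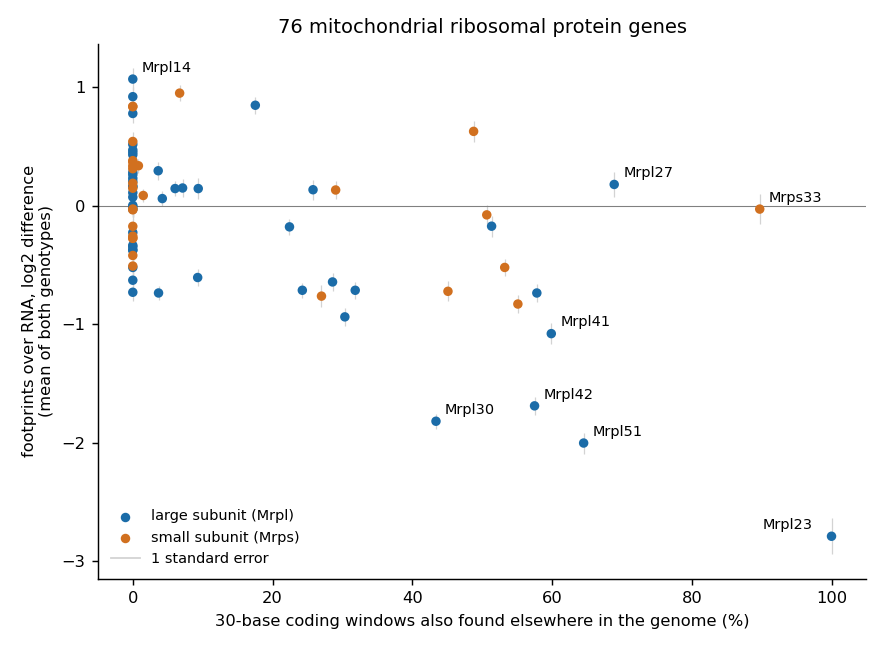
The share of a member's 30-base coding windows that are found elsewhere in the genome (horizontal, in percent) against its log2 difference of footprints over RNA, mean of both genotypes, with bars of 1 standard error. Mrpl23 sits alone at 100% and -2.79, Mrpl51 at 64.5% and -2.0, while Mrps33 at 89.7% and Mrpl27 at 68.9% lie near 0. The differences are not per length.

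Levels can be set side by side between members only per length, as CPM per kb of mRNA for RNA and per kb of coding sequence for footprints. In Mael+/- testes RNA was highest for Mrpl52 at 142 ± 6.86, Mrpl54 at 121 ± 7.87 and Mrpl30 at 109 ± 5.00 CPM per kb (SD, n = 3). These are short mRNAs of large subunit proteins, and Mrpl54 and Mrpl30 differed by less than the sum of their SDs. It was lowest for Mrpl19 at 5.52 ± 0.475, Mrps33 at 6.33 ± 0.735 and Mrps25 at 6.71 ± 0.196 CPM per kb (SD, n = 3), which also lay within the spread of their neighbours. In footprints Mrpl33, a very small protein with a bacterial counterpart, led at 376 ± 65.7 CPM per kb, before Mrps17 at 281 ± 20.8 and Mrpl52 at 225 ± 3.85 CPM per kb (SD, n = 3). The lowest were Mrps36 at 1.13 ± 0.889, Mrpl23 at 2.06 ± 0.375 and Mrps33 at 20.4 ± 2.06 CPM per kb (SD, n = 3), all of them with most of their coding windows elsewhere.

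Between their extremes the members spread less than all genes did, and in RNA about as much as the 2 lists most like them. For the 76 members tested in both assays, the upper quartile of RNA per kb was 2.40 times the lower one, against 7.87 times over all genes, and that of footprints per kb was 2.10 times, against 7.16. For cytosolic ribosomal protein genes these ratios were 2.61 and 19.3, and for oxidative phosphorylation genes 2.99 and 3.07. For the 44 members with under 1% of windows elsewhere the footprint ratio was 1.51, where all genes of that kind had 7.05. The median member had 42.1 CPM per kb of RNA and 71.9 CPM per kb of footprints, above the 12.4 and 23.9 of all genes. Footprint CPM per kb of coding sequence lay above RNA CPM per kb of mRNA for 67 of the 76. Of the 10 most abundant members by RNA per kb, 4 were also among the 10 most abundant by footprints per kb. Log2 RNA and log2 footprint levels per kb had a Pearson r of 0.468 over the 76 members and 0.530 over the 44, as a description of genes that share libraries.

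**Figure D5:**
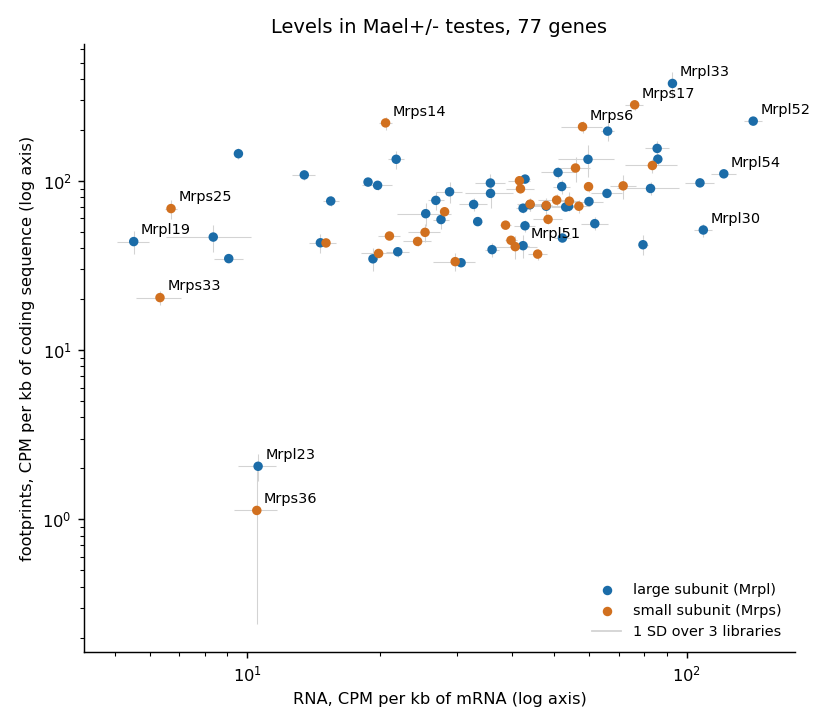
RNA in CPM per kb of mRNA (horizontal, log axis) against footprints in CPM per kb of coding sequence (vertical, log axis) for 77 members in Mael+/- testes, as means with bars of 1 SD over 3 libraries. Most points form 1 cloud around 42.1 and 71.9, with Mrpl33 at the top at 376, and Mrpl23 at 2.06 and Mrps36 at 1.13 far below it.

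Mitochondria have 3 proteins related to bacterial S18, of which structures place the product of Mrps18c where the bacterial protein sits, that of Mrps18b at another site of the small subunit and that of Mrps18a in the large subunit. Their RNA levels in Mael+/- were 56.8 ± 3.40 CPM per kb for Mrps18a, 21.1 ± 1.21 for Mrps18b and 71.7 ± 4.87 for Mrps18c (SD, n = 3). Footprints were at 70.8 ± 6.37, 47.2 ± 1.92 and 93.4 ± 15.2 CPM per kb, so Mrps18c was highest and Mrps18b lowest in both assays. Footprints against RNA gave -0.27 ± 0.06 (SE) for Mrps18a, 0.63 ± 0.09 for Mrps18b and 0.13 ± 0.08 for Mrps18c, the last not past the threshold. Mrps18a shares 6871 bases with Rsph9 on the opposite strand.

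L1 ORF1p, the RNA-binding protein that L1 encodes, was precipitated from testes by the study, and the genes of the bound mRNAs form a list that was held here in shortened form. The precipitation used sucrose gradient fractions of Mael-/- testes from adult mice, while the values below come from unfractionated extracts of both genotypes at P16. On the lines held were 9 members, Mrpl1, Mrpl3, Mrpl9, Mrpl35, Mrpl39, Mrpl43, Mrpl44, Mrpl45 and Mrps31, and no overlap was tested. In RNA their median log2 fold change was 0.04, from -0.26 to 0.12, and in footprints it was -0.02, from -0.19 to 0.07. Translation efficiency changed by a median of -0.04, from -0.17 for Mrpl3 to 0.07 for Mrpl39, and 1 of the 9 was above 0. Mrpl45, whose protein binds at the tunnel exit and ties the ribosome to the inner membrane, had 36.2, 32.2 and 36.9 CPM of footprints in Mael+/- and 34.5, 31 and 38.9 CPM in Mael-/-. Its groups overlapped, with a log2 fold change of -0.01 ± 0.12 (SE).

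The members also shared features of position and promoter sequence. By the annotation of GRCm38, 32 of 77 members (41.6%) had a protein-coding gene starting on the other strand within 1000 bases of their own start, against 11.1% of 20385 genes. One pair of members, Mrpl46 and Mrps11, had starts 42 bases apart on opposite strands, a large and a small subunit gene back to back. Mrpl36 faced Ndufs6 at 21 bases and Mrpl47 faced Ndufb5 at 302 bases, both genes of respiratory complex I. Mrpl43 overlapped the start of Twnk, the mitochondrial DNA helicase, Mrpl49 faced Fau, a cytosolic ribosomal protein gene, and Mrps12 faced Sars2, a mitochondrial seryl-tRNA synthetase. These examples were picked after the partners were seen.

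Promoters of 68 members were in the RefSeq table for GRCm38, from 250 bases before to 50 after the start, and were searched on both strands for core motifs of 3 factors known for nuclear genes of mitochondria. The ETS-type motif CCGGAAG was in 24 of 68 (35.3%) against 12.3% of 16367 promoters. The NRF1-type motif GCGCATG was in 8 (11.8%) against 5.10%, and the YY1-type motif ATGGCGG in 13 (19.1%) against 5.62%. At least 1 of the 3 was in 35 (51.5%) against 20.4%. The YY1-type letters hold ATG and can overlap a start codon, and that ATG can also be the end of the NRF1-type letters. The stretches below show each motif in capitals, for members named above.
Mrpl33 NRF1-type: taccggaacccGCGCATGccccggaagtag
Mrpl33 ETS-type: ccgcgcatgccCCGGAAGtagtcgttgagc
Mrpl51 ETS-type: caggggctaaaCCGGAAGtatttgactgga
Mrpl53 ETS-type: ccgcggagccgCCGGAAGcggtccgttcca
Mrps18a YY1-type: tgcgttccaagATGGCGGccctcagggctc
Mrpl9 NRF1-type: gaggcgcagctGCGCATGcgcggggtcctt
All 6 are on the plus strand, at chr5:31613928-31613957, chr5:31613937-31613966, chr6:125192099-125192128, chr6:83109038-83109067, chr17:46111007-46111036 and chr3:94443297-94443326 in the order shown. A match is a description of letters, and no binding was measured here.

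The other genes of mitochondrial translation had no calls between the genotypes. Of 7 mitoribosome subunits listed by other symbols, 1 of them the member Mrpl57, 0 were called by edgeR in RNA, footprints or translation efficiency, with medians of 0.05, -0.02 and -0.06. Dap3, a GTP-binding small subunit protein among them, had 166, 153 and 159 CPM of RNA in Mael+/- and 152, 146 and 159 CPM in Mael-/-. For 15 translation factors, 24 assembly and rRNA modification genes, 4 transcription genes and 17 aminoacyl-tRNA synthetases of mitochondria, 0 were called by edgeR in any of the 3 comparisons. At an unadjusted p under 0.05 stood 1 translation factor in RNA and 1 in footprints, 2 assembly and modification genes in footprints, and 0 of the rest. Their RNA medians were 0.02, -0.02, -0.00 and 0.01 on the log2 scale.

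In footprints against RNA these lists had calls in both directions, where 29.7% of all genes were called higher and 39.9% lower. Translation factors were called higher for 7 and lower for 5 of 15, assembly and modification genes for 4 and 11 of 24, transcription genes for 1 and 2 of 4, and aminoacyl-tRNA synthetases for 4 and 4 of 17. Tufm, the elongation factor that brings aminoacyl-tRNA to the mitochondrial ribosome, had 44.8, 51.0 and 45.0 CPM of RNA and 5.09, 4.78 and 4.39 CPM of footprints in Mael+/-. Its difference, taken without account of length or of copies elsewhere, was -3.15, below that of any member. Gfm1, the translocase of the same ribosome, was at 0.46, and Polrmt, the polymerase that transcribes mitochondrial DNA, at 0.67.

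Set beside the members were the genes of the cytosolic ribosome and of oxidative phosphorylation, by 83 and 85 genes in the table. In RNA the median log2 fold change was -0.03 for 82 cytosolic ribosomal protein genes and -0.00 for 82 oxidative phosphorylation genes. In footprints it was -0.11 for 64 and -0.07 for 79, with 0 called in either list by edgeR in either assay. In translation efficiency it was -0.09 for 63 and -0.05 for 78, with 28.6% and 24.4% above 0, near the 28.9% of the members. At an unadjusted p under 0.05 there were 0 cytosolic and 2 oxidative phosphorylation genes in RNA, and 9 and 5 in footprints. Footprints against RNA gave the cytosolic genes a median of -2.67, with 2 higher against 59 lower of 63 tested. Oxidative phosphorylation had 0.18 with 35 higher and 24 lower of 78. All genes had a median of -0.08, with 29.7% called higher and 39.9% lower. Of the cytosolic genes 94.0% had at least 25% of their coding windows elsewhere, against 27.3% of the members and 35.3% of the oxidative phosphorylation genes. All tested genes of that kind had a median difference of -0.92, with 8.96% called higher and 76.4% lower. Per length, the median RNA level in Mael+/- was 353 CPM per kb for cytosolic ribosomal protein genes and 113 for oxidative phosphorylation, above the 42.1 of the members, and the median footprint level was 88.6 and 219 against 71.9.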

How the data were processed

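RNA and footprint libraries of 3 testis extracts per genotype were measured, described by the study as biological triplicates. The authors deposited raw counts per gene, made by removing ribosomal RNA reads from the footprints with Bowtie 1.2.2, aligning to mm10 with STAR 2.6.0c and counting whole mRNAs (RNA) or coding sequence (footprints) with featureCounts of Subread 1.6.4. Use of the 5-base molecular tags and of multiply mapping reads in counting is not given in the sources used here. Deposited tables of the authors' own DESeq2 1.24.0 comparisons (fold changes and p-values) were not used.

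From the counts, edgeR 4.0.16 in R 4.3.3 (limma 3.58.1) fitted quasi-likelihood models per assay, or over both for translation efficiency and for footprints against RNA, with the default expression filter, TMM factors within each assay and Benjamini-Hochberg adjustment over all genes at 0.05. Standard errors and 95% intervals come from the fits. The floor of 3 counts covers counting error only. The biological coefficient of variation was 13.6% in RNA and 12.3% in footprints. The fits were also run on simulated data, with each library drawn independently at a fixed spread. Those data did not hold the pairing of RNA and footprints by extract. Alternatives were median-of-ratios factors, no filter, a mean of at least 50 counts, DESeq2 1.42.0, replicate blocks, each library left out, TMM over 12 libraries, centring, length and, chosen after seeing the data, members with under 1% of windows elsewhere and leaving out Mael+/- extract 1. Named members are those at the ends of each comparison, the lowest and highest levels, those without overlap in both assays, the S18 family and the ORF1p-bound list. Members and lists were chosen with earlier results of these data known.

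RNA and footprints come from the same extract and so are paired by design. Their deviations from the group means correlated at r = 0.80, 0.66 and 0.70 in Mael+/- and 0.26, 0.27 and 0.27 in Mael-/- over 12181 genes. The values printed come from the fit without this pairing. With the extract as a block, 65 members were called in footprints against RNA, against 56 without it. Calls over all genes moved as well, to 34.6% higher and 44.5% lower from 29.7% and 39.9%. In translation efficiency 0 members were called either way.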

Additional observations from a re-analysis of the deposited data

How the results depend on the processing

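The members had 0 calls between the genotypes, be it for RNA, footprints or translation efficiency, under every alternative run, DESeq2, each left-out library and the replicate block included. Their median log2 fold change ran from -0.03 to 0.06 in RNA, from -0.05 to -0.01 in footprints and from -0.09 to -0.01 in translation efficiency when 1 library was left out. Over all genes the number called moved from 17 to 58 with DESeq2, 50 with the replicate block and 4 at a mean of at least 50 counts in RNA, and from 8 to 21, 23 and 1 in footprints. Whether same-numbered libraries of the 2 genotypes share more than a number is not given in the sources used here. Their deviations correlated at -0.01 to 0.27 in RNA and 0.06 to 0.25 in footprints, the highest near the values of the Mael-/- extract pairs. Of 6 libraries per assay, 3 in RNA and 4 in footprints matched best with their own number. A shared batch was not tested.

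In footprints against RNA, 53 to 59 members were called with 1 library left out, with medians of -0.03 to 0.04, and 65 with the extract as a replicate block. With all libraries and no block, 69.6% of all genes were called. With the block 34.6% of all genes were called higher and 44.5% lower. TMM over all 12 libraries and centring on all genes moved the median to 0.079 and 0.078, each with 64 called. Over all genes these settings called 34.3% and 34.2% higher, and 35.5% lower in each. Among the members with under 1% of coding windows elsewhere 35 were called, with a median of 0.15, by construction from fewer genes. Of all genes of that kind 31.6% were called higher and 36% lower. Per length the median was 0.80, against 0.87 for all genes, since the scale adds each gene's ratio of mRNA to coding length. On it 28 of 76 members turned from below to above 0, 21 of them called on the CPM scale, and 66 of 76 members were above 0, as were 91.5% of all genes. Among the called members named above these were Mrpl53 (0.28), Mrpl36 (1.17), Mrpl48 (2.02), Mrpl41 (1.49), Mrps25 (3.28), Mrps10 (0.13), Mrps18a (0.28), Mrpl43 (1.11), Mrpl45 (0.76) and Mrpl9 (0.66). Depth limits Mrpl23 and Mrps36, with under 20 footprints in every library.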
